A study of Rattus norvegicus with 8 samples.

Results

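The MHC class II antigen presentation genes were followed in the rat *substantia nigra* (SN): the chains *RT1-Ba*, *RT1-Bb*, *RT1-Da*, *RT1-Db1*, *RT1-DMa* and *RT1-DMb*, the invariant chain *Cd74* and the transactivator *Ciita*. The 8 genes were chosen by name, and a probe was taken as a member when its RefSeq accession belongs to one of them, which gave 9 of the 45598 probes on the array and 8 of the 16678 genes that could be named. Adult female Sprague Dawley rats, 3 months old at surgery, received a unilateral injection into the SN of an adeno-associated virus of serotype 6 (AAV6). The AAV-αSyn group received a vector carrying wild-type human α-synuclein at 5.2e+10 vector genomes per µL, and the AAV-Null group received a vector without it at 5.3e+09 vector genomes per µL. The titre therefore differed between the groups, and the effect of the transgene and that of the titre cannot be told apart in these arrays. The sources used here do not name the promoter that drives the transgene. RNA of the SN on the injected side, taken 20 weeks after surgery, was read in 1 colour on 8 Agilent arrays, 4 per group. The methods give 3 biological replicates per group, whereas 4 arrays per group were deposited and all 8 were used. Each array is taken here as 1 rat and named by the replicate number of its label.

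MHC class II molecules are cell surface heterodimers of an α and a β chain that show peptides from ingested protein to CD4+ T cells. In the rat the classical pairs are RT1-B (*RT1-Ba* with *RT1-Bb*) and RT1-D (*RT1-Da* with *RT1-Db1*). *Cd74* chaperones the new dimer and leaves a fragment in its groove, which the RT1-DM dimer (*RT1-DMa* with *RT1-DMb*) exchanges for peptide in the endosome. *Ciita* does not bind DNA itself and is recruited by factors seated on the promoters of these genes. In the healthy brain few cells carry class II, and microglia acquire it when activated. The classical chains are highly polymorphic, and Sprague Dawley is an outbred stock.

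The arrays were alike in signal: 74.8% to 77.5% of the 58717 spots other than controls were well above background, no spot was saturated, and all 8 arrays lay on 1 slide and were read in 1 scan. Intensities were taken to log2 and quantile normalized, and a unit of 1 on this scale is a doubling. The comparison between groups was made with limma for the 33853 probes detected above background in at least 1 rat. Precision is limited by the 4 arrays per group. The dopaminergic genes that mark the tissue were above background on all 8 arrays, *Th* (tyrosine hydroxylase) at 16.49 ± 0.168 (SD, n = 4) in AAV-Null and 15.97 ± 0.0564 (SD, n = 4) in AAV-αSyn rats. *Slc6a3*, the dopamine transporter, stood at 10.94 ± 0.487 and 10.15 ± 0.309 (SD, n = 4 each). Both were lower in AAV-αSyn rats at an unadjusted limma p (0.000604 and 0.0142) and not after adjustment (0.484 and 0.747). So was *Pitx3*, a transcription factor of these neurons, with a log2 difference of −0.78 (limma p 0.0124, adjusted 0.747).

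No class II probe passed the test for a difference between the groups. Of the 9 probes, 8 were above background on at least 1 array and were tested, which covers 7 of the 8 genes. An unadjusted limma p under 0.05 was reached by 0 of the 8 probes in either direction, whereas 5.64% of all probes tested reached it (3.31% higher and 2.32% lower in AAV-αSyn). After Benjamini–Hochberg adjustment over all probes 0 of the 8 passed, against 0.0148% of all probes. The groups of arrays overlapped for each of the 8, while 3.83% of probes with a value on every array had groups that did not overlap (2.57% higher and 1.26% lower in AAV-αSyn). What set several members apart was the spread between rats. *RT1-Bb*, *RT1-Da*, *RT1-Db1* and *Cd74* varied over the 8 arrays by more than 98% of all probes tested did, and AAV-αSyn rat 1 had the highest level of each. In RNA of a whole tissue, fewer cells of a type and less RNA per cell cannot be told apart.

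**Figure D1:**
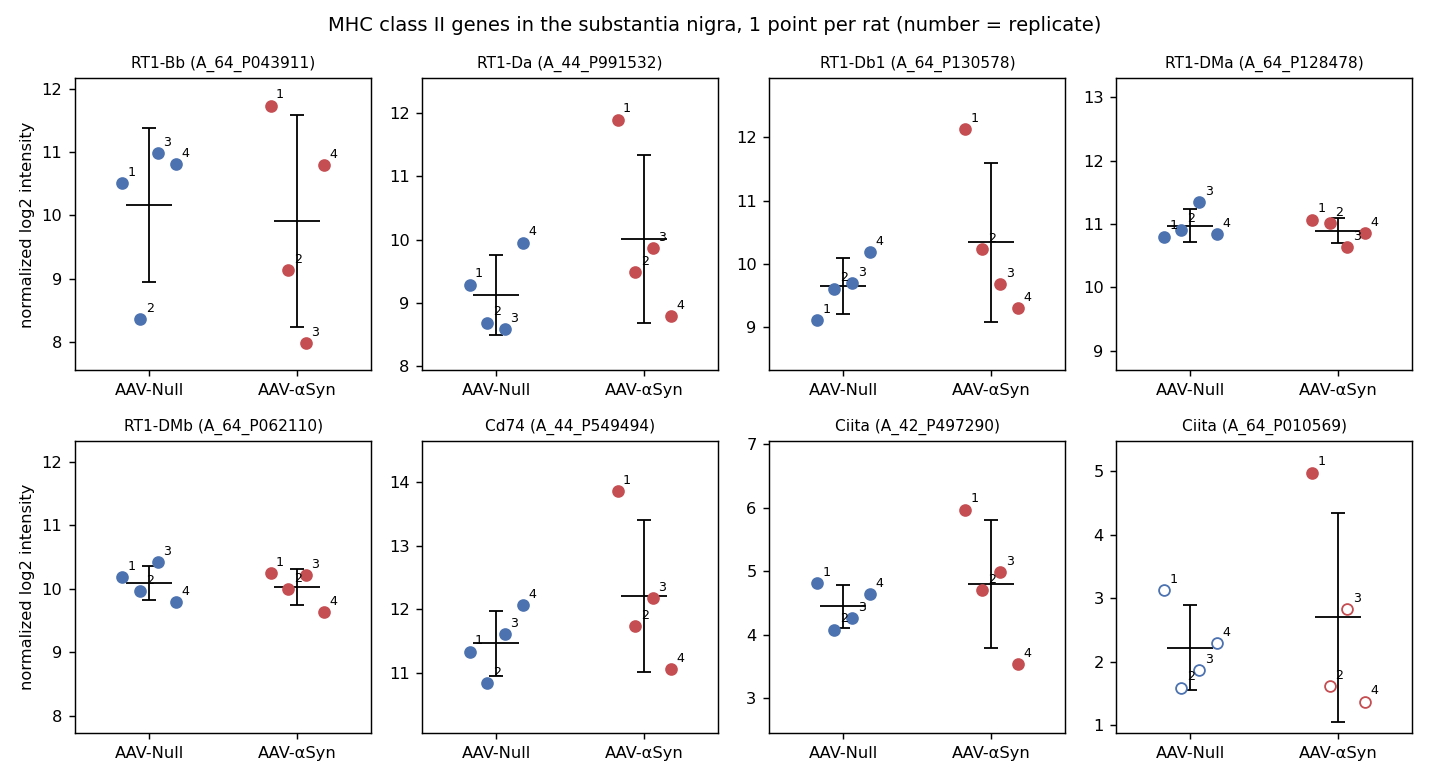
Normalized log2 intensity of the 8 class II probes tested in each rat, by group. Points are rats numbered by replicate, open points lie below background, the horizontal line is the group mean and the bar is 1 SD (n = 4). Every panel spans the same number of log2 units. AAV-αSyn rat 1 is the highest point for *RT1-Bb*, *RT1-Da*, *RT1-Db1*, *Cd74* and both *Ciita* probes, and the RT1-DM probes stay within 0.78 log2 units.

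*RT1-Da*, the α chain of RT1-D, stood at 9.29, 8.69, 8.59 and 9.95 log2 units in AAV-Null rats 1 to 4 and at 11.89, 9.49, 9.87 and 8.79 in AAV-αSyn rats 1 to 4. AAV-αSyn rat 1 lay apart above all others, and the other 3 AAV-αSyn rats lay within the AAV-Null range. The difference in group means was 0.88 log2 units (standard error 0.64, 95% interval −0.58 to 2.34), with a limma p of 0.203 before and 0.97 after adjustment. As a fold this was 1.84, with an interval from 0.667 to 5.07. Between the lowest and the highest rat the level differed 9.83-fold.

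*RT1-Db1*, the β chain that pairs with it, had values of 9.12, 9.61, 9.7 and 10.19 in AAV-Null and 12.13, 10.24, 9.68 and 9.31 in AAV-αSyn rats. Here too AAV-αSyn rat 1 was far above the rest, and AAV-αSyn rats 3 and 4 lay inside the AAV-Null range. The difference was 0.68 log2 units (standard error 0.57, interval −0.64 to 2.00; limma p 0.268, adjusted 0.972). The SD within groups was 0.439 for AAV-Null and 1.25 for AAV-αSyn rats (n = 4 each).

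*RT1-Bb*, the β chain of RT1-B, had values of 10.51, 8.37, 10.98 and 10.81 in AAV-Null and 11.73, 9.14, 7.99 and 10.79 in AAV-αSyn rats. AAV-Null rat 2 and AAV-αSyn rats 2 and 3 were low, the other 5 rats were high, and each group held both. This probe had the widest spread of the class II probes, 13.38-fold from lowest to highest, and its SD over the 8 arrays (1.36) was above that of 99.2% of all probes tested. The difference between groups was −0.26 log2 units (standard error 0.89, interval −2.3 to 1.79; limma p 0.781, adjusted 0.99). *RT1-Ba*, the α chain of the same dimer, was above background on 0 of 8 arrays. Its 1 probe read between 1.15 and 2.69 log2 units, where the dimmest probes called above background lay between 2.514 and 3.495 depending on the array, so no difference is given for it.

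The promoters of the classical chains share 2 short elements, the X1 box that the RFX complex binds and the Y box that NF-Y binds, and *Ciita* is recruited through them. For the 5 chains that have a promoter in the RefSeq table of the GRCr8 build, a stretch of 65 bases around a Y box core is printed. Letters that match a motif are in capitals. A match to the X1 box lies in the stretches of *RT1-Bb*, *RT1-Da* and *RT1-Db1* only. Whether these elements bear on the levels in any rat was not tested. Each sequence runs 5′ to 3′ on the strand of its gene. The stretches lie at chr20:4576964-4577028 (*RT1-Ba*, plus strand), chr20:4604165-4604229 (*RT1-Bb*, minus), chr20:4515316-4515380 (*RT1-Da*, plus), chr20:4560228-4560292 (*RT1-Db1*, minus) and chr20:4712385-4712449 (*RT1-DMa*, minus), all just upstream of the annotated gene start.
RT1-Ba: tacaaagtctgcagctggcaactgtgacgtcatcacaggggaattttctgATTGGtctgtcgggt
RT1-Bb: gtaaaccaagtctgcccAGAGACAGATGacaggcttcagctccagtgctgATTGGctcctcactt
RT1-Da: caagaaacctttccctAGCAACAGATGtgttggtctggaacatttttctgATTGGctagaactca
RT1-Db1: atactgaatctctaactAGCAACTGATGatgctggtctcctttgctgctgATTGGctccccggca
RT1-DMa: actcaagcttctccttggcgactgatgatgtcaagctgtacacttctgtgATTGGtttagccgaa

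The motifs searched on both strands were ATTGG for the core of the Y box and the X1 box, in the 250 bases before and 50 after each gene start, and in the class II promoters no match of one overlapped a match of the other. The X1 pattern fixes the bases AG at its start, AC in its middle and ATG at its end, as the longer capitals of *RT1-Bb*, *RT1-Da* and *RT1-Db1* show. *RT1-Bb*, *RT1-Da* and *RT1-Db1* hold both, with 33, 34 and 33 bases between the start of the X1 box and the start of the Y box. *RT1-Ba* and *RT1-DMa* hold the Y box core upstream of the start and no match to these X1 letters. *Cd74* holds a Y box core on the opposite strand, farther upstream, and no X1 match. No promoter of *RT1-DMb* or *Ciita* was printed. Over all 33469 promoters of the table, 37.5% hold the Y box core, 3.24% the X1 box and 1.47% both. An X1 box followed on the gene strand by a Y box core 25 to 45 bases on, a spacing set with the class II distances in view, is found in 12 promoters (0.0359%), of which 5 belong to class II genes (*RT1-Bb*, *RT1-Da*, *RT1-Db1*, *RT1-Db2* and *RT1-DOb*). A match of letters is a description and does not show binding.

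**Figure D2:**
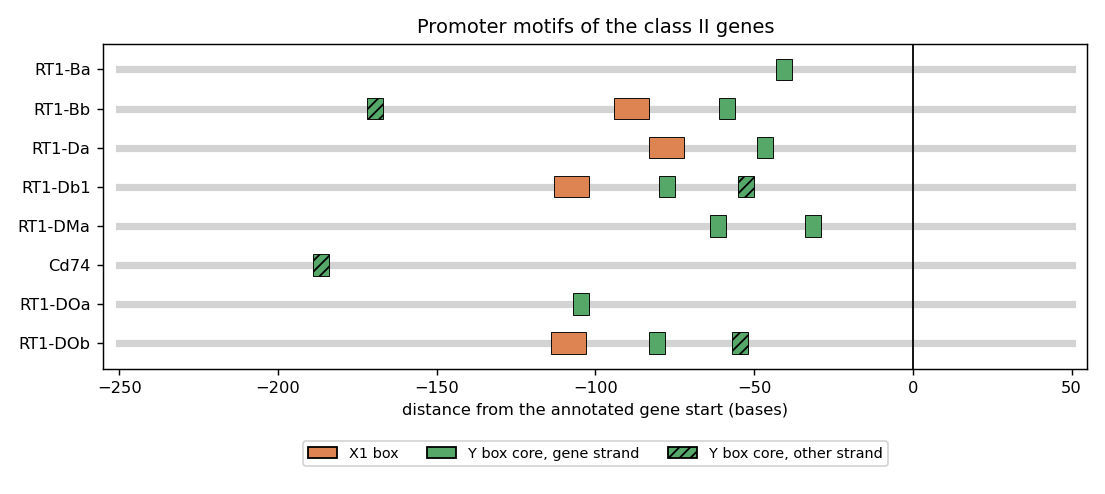
Positions of the X1 box and of the Y box core from 250 bases before to 50 bases after the annotated gene start, for the class II genes with a promoter in the table and the modulators *RT1-DOa* and *RT1-DOb*. Hatched boxes are matches on the strand opposite to the gene. *RT1-Bb*, *RT1-Da*, *RT1-Db1* and *RT1-DOb* show the X1 box followed by the Y box core.

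*Cd74*, which encodes the invariant chain, was the brightest class II probe. It read 11.33, 10.84, 11.61 and 12.06 log2 units in AAV-Null and 13.86, 11.73, 12.17 and 11.06 in AAV-αSyn rats. AAV-αSyn rat 1 was again alone at the top, and the other AAV-αSyn rats spanned nearly the same range as the AAV-Null rats. Group means were 11.46 ± 0.512 and 12.21 ± 1.19 (SD, n = 4 each), a difference of 0.75 log2 units (standard error 0.56, interval −0.55 to 2.04; limma p 0.221, adjusted 0.972). The exact permutation test over the 70 splits of the arrays into 4 and 4 gave 0.343, two-sided, where the smallest p possible is 0.0286.

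Repeat spots bear on how much of this spread is measurement within an array. The *Cd74* probe is printed 10 times on each array, and its spots had an SD of 0.027 to 0.0593 log2 units within an array, against 0.939 between arrays. On the array of AAV-αSyn rat 1 all 10 spots read between 13.78 and 13.9, while the highest spot on any other array read 12.23. The 2 spots of *RT1-Da* differed by an SD of at most 0.159 and those of *RT1-Db1* by at most 0.113, so the differences between rats are larger than the error of a spot. Repeat spots share the RNA preparation and the labelling of the array, whose error they do not show.

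**Figure D3:**
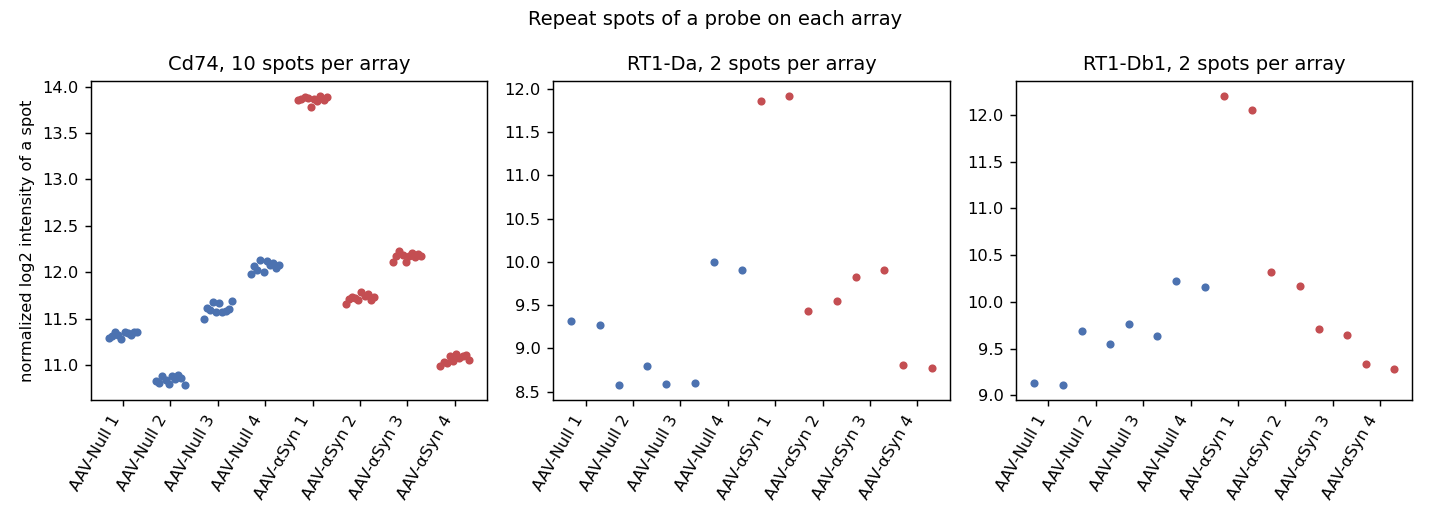
Normalized log2 intensity of every repeat spot of the *Cd74*, *RT1-Da* and *RT1-Db1* probes on each of the 8 arrays, blue for AAV-Null and red for AAV-αSyn. Spots of 1 array lie close together, and all spots of AAV-αSyn rat 1 lie above those of the other arrays in each panel. The vertical scales differ between panels.

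The RT1-DM genes, whose product loads peptide, varied least. *RT1-DMa* measured 10.8, 10.91, 11.35 and 10.84 in AAV-Null and 11.07, 11.02, 10.64 and 10.86 in AAV-αSyn rats. *RT1-DMb* measured 10.19, 9.97, 10.42 and 9.79 in AAV-Null and 10.25, 10, 10.22 and 9.64 in AAV-αSyn rats. AAV-Null rat 3 was the highest for both, and AAV-αSyn rat 1 did not stand apart for either. Their differences between groups were −0.08 (standard error 0.15, interval −0.42 to 0.26; limma p 0.614, adjusted 0.986) and −0.06 log2 units (standard error 0.18, interval −0.47 to 0.34; limma p 0.728, adjusted 0.987). As folds the intervals ran from 0.747 to 1.2 for *RT1-DMa* and from 0.721 to 1.27 for *RT1-DMb*, the narrowest among the members. Their SD over the 8 arrays, 0.213 and 0.258, was above that of 56.7% and 67.7% of all probes tested, in contrast to the classical chains and *Cd74*.

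*Ciita*, the transactivator, was dim. Its brighter probe read 4.81, 4.08, 4.26 and 4.64 in AAV-Null and 5.97, 4.7, 4.99 and 3.53 in AAV-αSyn rats and was above background on all 8 arrays. The AAV-αSyn group held both the highest rat (1) and the lowest (4). The difference was 0.35 log2 units (standard error 0.46, interval −0.71 to 1.40; limma p 0.47, adjusted 0.973). Without AAV-αSyn rat 4 it became 0.77 with an unadjusted p of 0.0471, and without AAV-αSyn rat 1 it became −0.04. The second probe was above background only in AAV-αSyn rat 1, where it read 4.98, against 1.37 to 3.13 on the other arrays. Since it was below background in all 4 AAV-Null rats and passed the filter on dim probes only through that rat, no difference is given for it, and its place among the 8 probes tested adds nothing to their count.

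Taking 1 probe per gene, the median difference of the 7 genes was 0.35 log2 units, with 4 of the 7 above 0, and the median of all probes tested was 0.01. Much of this rested on AAV-αSyn rat 1. Without that rat the median was −0.04, *Cd74* was 0.19, *RT1-Da* 0.25, *RT1-Db1* 0.09 and *RT1-Bb* −0.86, none with an unadjusted limma p under 0.05. By the exact permutation test of single probes over all 8 arrays, two-sided, the lowest p of the 8 was 0.257 (*RT1-Da*). Centred on the mean of the 8 arrays, the mean of the 7 genes was 1.405 in AAV-αSyn rat 1, between −0.439 and −0.107 in the other AAV-αSyn rats and between −0.656 and 0.174 in the AAV-Null rats.

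**Figure D4:**
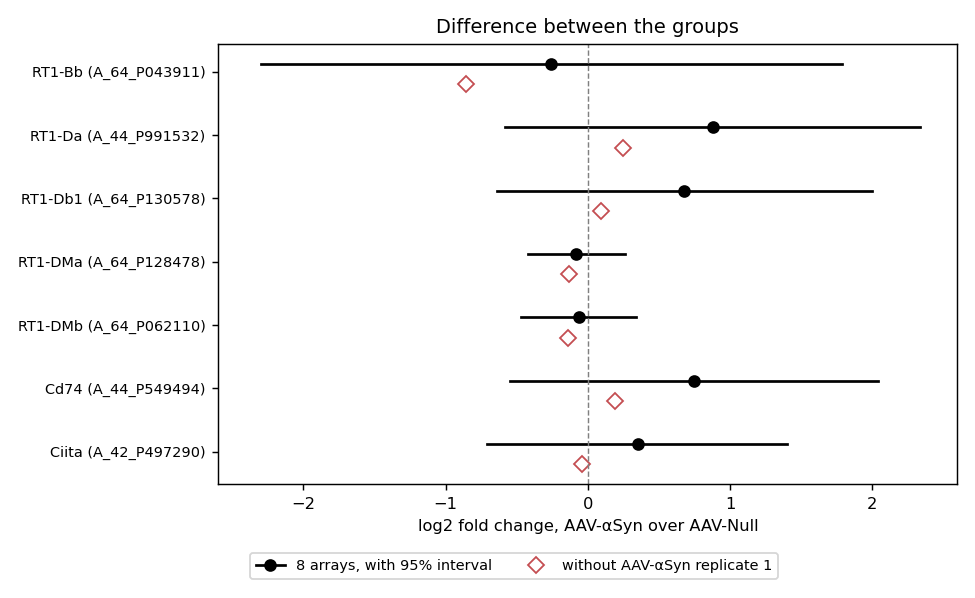
Difference in mean log2 intensity, AAV-αSyn minus AAV-Null, for the 7 class II probes above background on all 8 arrays. Black points with bars are the limma estimates over 8 arrays with 95% intervals, and open diamonds are the estimates without AAV-αSyn rat 1. All intervals include 0, and the estimates of *RT1-Da*, *RT1-Db1*, *Cd74* and *Ciita* lie closer to 0 without that rat.

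Relations between the members across the 8 rats were uneven. The levels of *RT1-Da* and *Cd74* went together most closely (Pearson r = 0.956, exact permutation p = 0.00203, adjusted 0.0388; Spearman rho = 0.833, exact permutation p = 0.0154, adjusted 0.196). The adjustment ran over 27 relations, 21 between pairs of class II genes and 6 with marker lists. *RT1-Da* and *Ciita* gave r = 0.902 (exact permutation p = 0.00293, adjusted 0.0388; rho = 0.738, p = 0.0458, adjusted 0.248). *Cd74* and *Ciita* gave r = 0.892 (exact permutation p = 0.00432, adjusted 0.0388; rho = 0.81, p = 0.0218, adjusted 0.196). These 3 pairs passed the adjustment by r, and no pair passed it by rho.

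Leaving out the 2 rats farthest from the median of the first-named gene gave r = 0.982, 0.801 and 0.722 for these 3 pairs, and leaving out AAV-αSyn rat 1 alone gave 0.816, 0.757 and 0.727. With values centred within each group the 3 coefficients were 0.947, 0.908 and 0.895 in the order *RT1-Da* with *Cd74*, *RT1-Da* with *Ciita* and *Cd74* with *Ciita*. *RT1-Db1* was tied less firmly. Its r with *RT1-Da* was 0.892 (exact permutation p = 0.0174, adjusted 0.0939; rho = 0.571, p = 0.151, adjusted 0.453) and with *Cd74* 0.912 (exact permutation p = 0.0113, adjusted 0.0765; rho = 0.738, p = 0.0458, adjusted 0.248). Without the 2 farthest rats these became 0.556 and 0.594, so the relation of *RT1-Db1* to its partner chain rests largely on those rats. *RT1-Bb* had r between 0.0339 and 0.49 with the other members, none past the adjustment. *RT1-DMa* with *RT1-DMb* gave r = 0.433 (exact permutation p = 0.286, adjusted 0.57; rho = 0.381, p = 0.36, adjusted 0.572). With 1 of AAV-Null rat 2 or AAV-αSyn rats 1, 2, 3 or 4 left out, 0 pairs passed the adjustment.

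The named genes outside the members whose levels were most like the mean of the 7 were *Tacc3* (r = 0.978), *Gbp5* (0.958), *Il16* (0.957), *Tdp1* (0.949), *Ccnb2* (0.934), *Rpl10* (0.932), *Kcnn4* (0.93), *Ifi47* (0.927), *Icam5* (0.926) and *Fis1* (0.925), over 8 arrays and out of 12589 genes. They were picked for this likeness, so no test is given, and AAV-αSyn rat 1 was the highest of the 8 for all 10. *Gbp5*, which encodes an interferon-induced GTPase, read 7.54 in that rat and 6.77 to 7.04 in the others. *Ifi47*, another interferon-induced GTPase gene, read 7.36 against 6.06 to 6.53. *Il16*, which encodes a cytokine that binds CD4, read 8.72 against 7.74 to 8.07. The shifts of *Rpl10* (15.53 against 15.4 to 15.45) and *Fis1* (16.23 against 16.07 to 16.16) were small.

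The wider pathway was described by 58 genes in 5 lists, of which 51 could be tested. Of these, 0 had an unadjusted limma p under 0.05 in either direction, against 5.64% of all probes tested. Past the adjustment were 0, against 0.0148% of all probes. The lowest p was 0.0569, for *Cd86*, a co-stimulatory ligand on antigen-presenting cells, with a difference of 0.54 log2 units (standard error 0.24; adjusted p 0.892). Of 13 antigen processing genes tested the median difference was 0.06. The brightest were *Cst3* (an inhibitor of cysteine proteases; −0.01), *Ctsb* (a lysosomal protease; 0.11) and *Ctsd* (an aspartic protease of lysosomes; 0.05), and *RT1-DOb*, the modulator of RT1-DM, had a difference of 0.2 (standard error 0.37).

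Among the 12 factors that act on class II transcription the median difference was 0.00, with *Rfx5* (a subunit of the RFX complex) at 0.08 and *Rfxap* (another subunit) at 0.04. Of the interferon γ signal 7 of 8 genes were tested, with a median of −0.05. Its receptor chains *Ifngr1* and *Ifngr2* had differences of 0.02 and −0.05 and the kinase *Jak1* of 0.09, and *Ifng* itself was above background on no array. Of 10 genes for co-stimulation and T cell recognition 7 were tested, with a median of 0.04, and *Cd80*, *Ctla4* and *Pdcd1* were above background on no array. The brightest, *Cd40* (a receptor on antigen-presenting cells), *Cd28* and *Icos* (receptors of T cells), had differences of 0.07, −0.11 and −0.12. The 12 class I genes tested had a median of 0.03, with *B2m* (the light chain) at 0.13 and the heavy chains *RT1-A1* and *RT1-A2* at 0.12 and 0.23.

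Markers of cells that can carry class II were examined in the same arrays. An unadjusted limma p under 0.05 was reached by 5.64% of all probes tested. In lists as short as these a count of 0 says little. All 12 microglial markers were above background on every array, and 0 of the 12 had an unadjusted limma p under 0.05. Their mean, centred on the 8 arrays, lay between −0.162 and 0.15 in AAV-Null and between −0.198 and 0.134 in AAV-αSyn rats, a far narrower range than that of the class II genes. The mean of the class II genes and that of the microglial markers gave r = 0.441 (exact permutation p = 0.295, adjusted 0.57; rho = 0.405, p = 0.327, adjusted 0.572; r = 0.103 without the 2 farthest rats). For border and perivascular macrophages, 6 of 7 markers were tested with 0 called. *Mrc1* was among them only through 1 AAV-αSyn array. The mean of the 4 above background on all arrays lay between −0.484 and 0.695 in AAV-Null and between −0.416 and 0.225 in AAV-αSyn rats. Its r with the class II genes was 0.0439 (exact permutation p = 0.92, adjusted 0.976; rho = −0.0952, p = 0.84, adjusted 0.945; r = 0.333 without the 2 farthest rats).

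Few markers of lymphocytes and dendritic cells were detected. Of 8 T cell markers 3 were tested (*Cd3d*, *Cd3g* and *Cd8b*), while *Cd3e*, *Cd2*, *Cd5* and *Cd8a* were above background on no array. Their mean was highest in AAV-αSyn rat 1, at 0.757, against −0.503 to 0.11 in the other AAV-αSyn rats and −0.767 to 0.356 in the AAV-Null rats. Its r with the class II genes was 0.619 (exact permutation p = 0.115, adjusted 0.443; rho = 0.381, p = 0.36, adjusted 0.572; r = 0.448 without the 2 farthest rats), and its part in the class II levels of that rat was not tested. For B cells, 4 of 6 markers were tested with 0 called. *Cd79b* was among them only through AAV-αSyn rat 1, where it read 5.19 against 1.2 to 3.3 on the other arrays. The mean of the 3 above background on all arrays gave r = 0.57 (exact permutation p = 0.16, adjusted 0.482; rho = 0.81, p = 0.0218, adjusted 0.196; r = 0.747 without the 2 farthest rats). Of 8 markers of monocytes and dendritic cells 2 were tested, and *Ccr7*, *Xcr1*, *Clec9a* and *Ccr2* were above background on no array. *Ly6c*, 1 of the 2, passed the filter only through AAV-αSyn rat 1, where it read 4 against 1.06 to 2.9. The mean of the markers of red blood cells, which follows blood left in the tissue, was −0.363 in AAV-αSyn rat 1 and lay between −0.97 and 0.855 in the AAV-Null rats, with r = −0.497 to the class II genes (exact permutation p = 0.209, adjusted 0.554; rho = −0.714, p = 0.0576, adjusted 0.259; r = −0.411 without the 2 farthest rats).

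**Figure D5:**
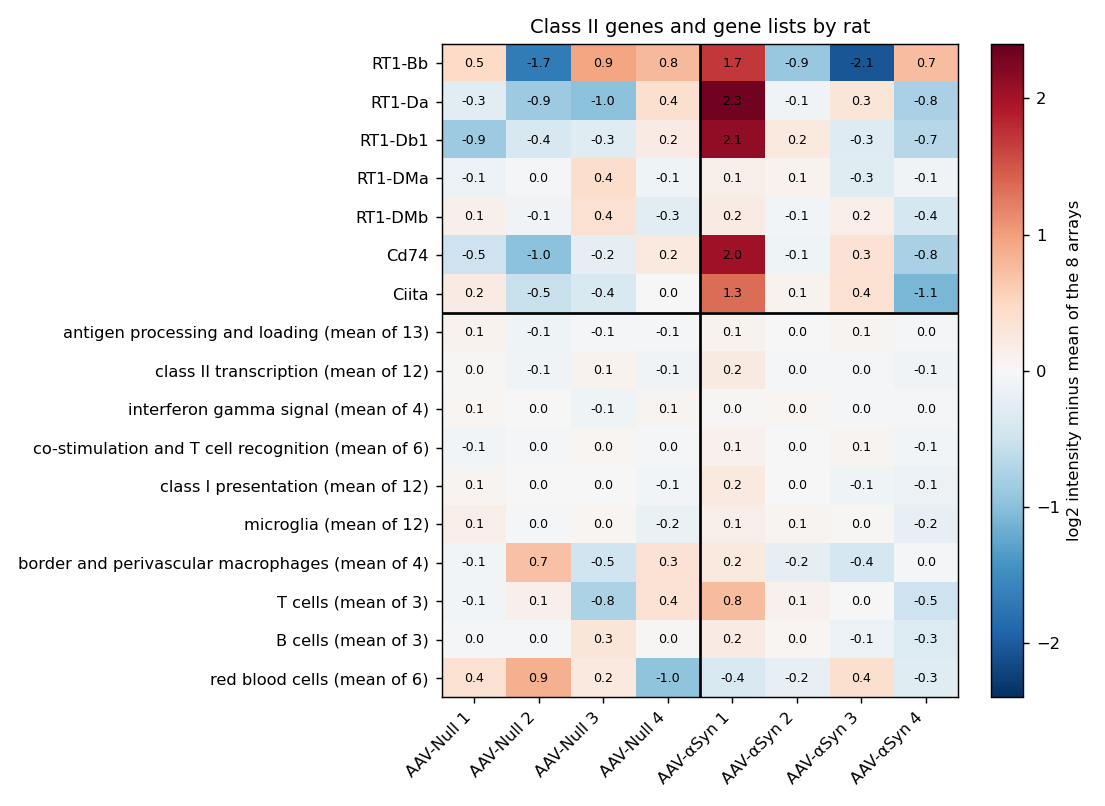
Log2 intensity of 7 class II genes (upper rows) and mean of the genes above background on all arrays in each pathway or marker list (lower rows), each minus its mean over the 8 arrays, by rat. Colours and printed values are log2 units, and the vertical line separates the groups. AAV-αSyn rat 1 is high for *RT1-Bb*, *RT1-Da*, *RT1-Db1*, *Cd74* and *Ciita*, *RT1-Bb* is low in AAV-Null rat 2 and AAV-αSyn rat 3, and the microglial mean varies little.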

How the data were processed

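RNA from the SN on the injected side was hybridised to 8 Agilent arrays in 1 colour (Cy3). The authors deposited Feature Extraction files that give each spot's intensity after background correction within the array, without normalization between arrays, and a matrix of log2 values, which the authors quantile normalized. The labels give Feature Extraction 11.5.1.1 and the file headers 12.0.3.2. Here the processed intensity was taken to log2, control and outlier spots were left out, and a probe counted as above background where at least 0.5 of its spots were called so. Probes above background on at least 1 array (33853 of 45598) were quantile normalized and their spots averaged. The groups were compared by limma's lmFit and eBayes without a trend, two-sided, with Benjamini–Hochberg adjustment over all probes tested and a threshold of 0.05 (R 4.3.3, limma 3.58.1, data.table version 1.17.8, statmod 1.5.0). Permutation tests were exact, over the 70 ways to split the arrays 4 and 4 or over all pairings for correlations. The labels do not say that each array is a separate animal, and p-values measure only the spread between these samples.

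Accessions were named through a RefSeq table of the rat assembly GRCr8, which gave 21229 probes a symbol. The files hold no probe sequences that were used here. Cross-hybridisation between related chains was therefore not examined, nor was how well a probe matches the allele of each rat. No gene coordinates are given except those of the printed promoters. The brightest probe stood for a gene with more than 1. Named genes are the members, genes of each list with an unadjusted p under 0.05 (at most 6 a list), the 3 brightest of each pathway list, *Th* and *Slc6a3*, and the 10 genes most like the members. A gene that this rule selects is not reported here. *Cd86*, *RT1-DOb*, *Cd79b*, *Ly6c* and *Mrc1* and all genes named under the other observations were chosen after their values were seen. The members and the lists were chosen with earlier results of these data known.

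The alternatives were scaling to the 75th percentile, cyclic loess, normexp with an offset of 50, other filters on dim probes, the deposited matrix, a variance trend, robust variance, array weights, the replicate number or the side of the slide as a block, the mean of a gene's probes, and leaving out each array. The procedure was tested on simulated data of the comparison of AAV-αSyn with AAV-Null. Of 200 probes changed by 2 log2 units among 33836, 93% were recovered, and 11 unchanged probes were called. The changed probes were drawn at random, and the median SD within groups over all probes tested was 0.189. That SD was 0.748 to 1.46 for *RT1-Bb*, *RT1-Da*, *RT1-Db1*, *Cd74* and the brighter *Ciita* probe. The share recovered therefore does not say how often such a change would be found for these genes.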

Additional observations from a re-analysis of the deposited data

Results flagged for a closer look

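In 84 groups of 4 arrays examined for 1 array lying far from the other 3, 3 were set apart, where chance alone gives about 4.2 (1 in 20). For *Cst3* in AAV-Null rats, rat 3 read 18.15 against 18.09 to 18.10 in the others, a gap of 0.884 of the range of the group. For *Jak1* in AAV-αSyn rats, rat 3 read 13.76 against 13.85 to 13.86, a gap of 0.917 of the range. The mean of the 12 genes for class II transcription, centred on the 8 arrays, was 0.207 in AAV-αSyn rat 1 and between −0.085 and −0.039 in the other AAV-αSyn rats, a gap of 0.842. All 3 lie above Dixon's critical value for 4 arrays at the level of 95%. The mean of the class II genes themselves fell just short of that value in AAV-αSyn rats (0.82, rat 1 high), as did *RT1-Bb* in AAV-Null rats (0.822, rat 2 low).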

How the results depend on the processing

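Under the 13 processing alternatives 0 class II probes were called in either direction or past the adjustment, and the median of the class II genes ranged from 0.15 to 0.41 log2 units. *Cd74* ranged from 0.69 to 0.89, *RT1-Da* from 0.80 to 0.90, *RT1-Db1* from 0.49 to 0.71 and *Ciita* from 0.15 to 0.41. Array weights turned *RT1-Bb* to 0.38. They also gave 2670 probes higher, 1937 lower and 12 past the adjustment over the whole array, 2 pathway genes higher and 4 marker genes outside the dopaminergic list lower. Pathway genes called higher numbered 1 with scaling to the 75th percentile, without a filter and with the filter at all 8 arrays. Marker genes called higher numbered 1 with cyclic loess, normexp, no filter and the filter at all 8 arrays, and 2 with a variance trend. The side of the slide as a block left 3 probes past the adjustment. With the mean of a gene's probes 1 pair of class II genes passed the adjustment. Among single pathway genes near 0, the sign turned for *Ifngr1* (array weights −0.03), *Cst3* (normexp 0.00, array weights 0.00) and *Icos* (array weights 0.05, mean of probes 0.08). The cause of these changes was not tested.

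The labels name no pairing of the rats by replicate number. Same-numbered arrays of the groups lay in the same column of the slide, so the number also marks a position. Deviations of same-numbered arrays from their group means correlated at 0.144, 0.267, 0.0406 and −0.00217, which does not settle whether the numbers pair the rats. With the number as a replicate block 0 probes passed the adjustment, and 2 pathway genes and 1 marker gene were called higher and 1 marker gene lower. With this block the standard error of *RT1-DMb* fell from 0.18 to 0.08 and that of *RT1-Db1* rose from 0.57 to 0.65. The block changed no call of a class II probe, but ended that of the dopaminergic gene *Ddc*. Its difference was −0.25 in both fits, with an unadjusted limma p of 0.0327 without and 0.0634 with the block.

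Leaving out 1 array at a time gave 0 to 1 class II probes called higher (*Ciita* without AAV-αSyn rat 4) and 795 to 1761 probes higher over the whole array, with 3 to 5 past the adjustment. Pathway genes called numbered 0 to 2 in each direction, marker genes 0 to 1 higher and 0 to 5 lower, and pairs of class II genes past the adjustment 0 to 4. The median of the class II genes ranged from −0.04 to 0.77, *Ciita* from −0.04 to 0.77, *RT1-Bb* from −0.86 to 0.39, *RT1-DMa* from −0.13 to 0.05, *RT1-DMb* from −0.16 to 0.06, *Cd74* from 0.19 to 1.13, *RT1-Da* from 0.25 to 1.29 and *RT1-Db1* from 0.09 to 1.03. The sign also turned within the ranges of *Ifngr1* (−0.03 to 0.07), *Ifngr2* (−0.11 to 0.02), *RT1-A1* (−0.05 to 0.22), *Cst3* (−0.02 to 0.00) and *Cd28* (−0.23 to 0.01). *Ddc* stayed lower, from −0.29 to −0.17, but its unadjusted limma p (0.0279 to 0.0783) was under 0.05 in only 4 of the 8 fits. Signal over background limits *RT1-Ba* and the second *Ciita* probe.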

Other observations

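Some genes of the MHC region and its regulation stood apart in AAV-αSyn rat 1 and were chosen after their values were seen, so no test is given. *RT1-Db2*, a second β chain gene of RT1-D, read 10.35 log2 units in that rat against 7.22 to 8.52 in the other 7, close to the pattern of *RT1-Db1*, and whether a probe reads both genes was not tested. *Tap2*, a subunit of the transporter that feeds peptides to class I, was low in the same rat by both of its probes: 7.41 against 9 to 9.39, and 6.85 against 8.41 to 8.94. *Tap1*, the other subunit, was not low there (6.54 against 5.64 to 6.38). *Psmb9*, a subunit of the immunoproteasome, read 10.82 against 9.64 to 10.18. *Irf4*, a transcription factor of lymphocytes and antigen-presenting cells, read 8 against 6.36 to 7.06, and *Cd3g*, a subunit of the T cell receptor complex, 6.59 against 3.86 to 5.34. The myeloid factor *Spi1* was highest in AAV-Null rat 3, at 7.69 against 5.86 to 6.75 elsewhere.

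Outside the list of class I presentation, 34 probes of 24 RT1 class I genes were tested, and 3 (8.82%) had an unadjusted limma p under 0.05, against 5.64% of all probes. All 3 were lower in AAV-αSyn rats, and 0 passed the adjustment over all probes. They were chosen after their values were seen. *RT1-CE11* had a log2 difference of −0.34 (p 0.00548, adjusted 0.649), with 9.23 to 9.44 in AAV-Null and 8.88 to 9.1 in AAV-αSyn rats, which did not overlap, as was so for 1 of the 34 probes (2.94%) and 3.83% of all probes. *RT1-CE12* had −0.34 (p 0.0437, adjusted 0.868) and *RT1-CE7* −0.47 (p 0.0414, adjusted 0.862), with groups that overlapped, and the second probe of *RT1-CE7* had 0.02 (p 0.916, adjusted 0.996).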
